A study of Homo sapiens with 8 samples.

Results

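The DNAJ genes encode the J-domain proteins, also called HSP40 cochaperones, which were described here in human leukaemia cells exposed to PKF118-310. The members were the genes whose symbol is DNAJA, DNAJB or DNAJC followed by a number. They came to 42 of 57189 genes, with 4 in subfamily A, 12 in subfamily B and 26 in subfamily C. RNA-seq of poly(A) RNA had been done on TIB153 and CUTLL1 (CUTTL1 in the labels), which are lines of T-cell acute lymphoblastic leukaemia (T-ALL). Cells of each were control or treated with PKF118-310, an inhibitor of the binding of β-catenin to TCF factors. Control cells were labelled as not transfected and as control, and both lines were grown in RPMI with 10% FBS. Each of the 4 groups held 1 library sequenced in 2 lanes, and the lanes were summed. A line is a single leukaemia grown in culture, so the comparison over both lines rests on n = 2 lines.

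J-domain proteins bind clients and start ATP hydrolysis by HSP70 chaperones, which then hold the client until a nucleotide exchange factor releases it. Class A and class B proteins mostly handle unfolded proteins in the cytosol, nucleus, mitochondria or endoplasmic reticulum (ER). Class C proteins share little beyond the J domain and bring HSP70 to particular tasks such as protein import, splicing or vesicle uncoating. Some members, DNAJB1 being the best known, are targets of heat shock factor 1 through heat shock elements in their promoters.

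Library totals lay between 7609427 and 8140391 counts, and 3 counts corresponded to between 0.358 and 0.406 CPM (reads of a gene per fixed number of reads, with library sizes adjusted by TMM factors between 0.974 and 1.033). The number of genes detected was 19674 and 19719 in the control libraries of CUTLL1 and TIB153, and 21134 and 22120 in the treated ones. Marker levels were scaled to total counts alone, without TMM factors. All 7 T-lineage markers had reads in every library and summed to between 1610 and 2270 CPM. Of the B cell markers, MS4A1 was at 0 throughout, while CD79A lay at 10.5 and 13.7 CPM in CUTLL1 and at 78.0 and 107 CPM in TIB153, each control first. Epithelial, fibroblast and myeloid lists stayed between 0.615 and 5.12 CPM, and EPCAM was at 0 in all 4 libraries. The part of these differences in the results was not tested.

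Promoter sequence was examined first for heat shock elements, since some members are known targets of heat shock factor 1 through them. RefSeq windows of 250 bases before to 50 bases after each transcript start (GRCh38.p14) were held for 38 of the 42 members, in 50 windows. DNAJB3, DNAJC1, DNAJC22 and DNAJC24 had no window and were not searched. Each window was searched on both strands for the paired units GAANNTTC and TTCNNGAA, which overlap where 3 units follow each other. At least 1 pair was found in 9 of the 50 member windows (18.0%, in 8 members), against 13.5% of all 35116 windows. The head-to-head pair GAANNTTC was found in 7 member windows (14.0%, against 6.77% of all) and the tail-to-tail pair TTCNNGAA in 4 (8.0%, against 7.74%). The stretches below hold the pairs that lay before the start in 5 members of the cytosolic classes A and B, with the paired units in capitals and each stretch written 5′ to 3′ on the gene's strand. They are shown because these members, all with pairs, had unlike values below: DNAJB4 was higher with PKF118-310 in both lines, DNAJB1 in TIB153 and not in CUTLL1, and the others in neither line. DNAJB7, with 1 read in all, and DNAJC15, whose pair lies in an annotated exon, also had a pair before the start and are not shown. The stretches of DNAJA4, DNAJB1, DNAJB4 and DNAJB6 lie inside the annotated span of their gene, downstream of another start.
DNAJB4, chr1:78004821-78004868, plus strand: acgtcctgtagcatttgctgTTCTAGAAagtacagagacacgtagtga
DNAJB1, chr19:14518417-14518494, minus strand: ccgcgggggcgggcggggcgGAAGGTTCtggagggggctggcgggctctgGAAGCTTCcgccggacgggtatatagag
DNAJB6, chr7:157336853-157336905, plus strand: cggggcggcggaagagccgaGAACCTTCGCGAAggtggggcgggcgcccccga
DNAJA1, chr9:33025055-33025102, plus strand: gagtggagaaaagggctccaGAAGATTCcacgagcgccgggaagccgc
DNAJA4, chr15:78264451-78264537, plus strand: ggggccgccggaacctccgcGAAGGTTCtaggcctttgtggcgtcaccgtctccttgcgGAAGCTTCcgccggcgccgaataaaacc

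In DNAJB1 the pairs lay 77 to 70 and 47 to 40 bases before the start, and in DNAJB4 the single pair lay 98 to 91 bases before it. DNAJB6 had overlapping pairs that form a 3-unit element 131 to 119 bases before its start. A second such element lay in DNAJA1, 3 to 15 bases after the start and so inside the transcript. The 3-unit element was thus in 2 of 50 member windows (4.0%), against 0.49% of all windows. DNAJB2, which is described below as higher in both lines, had no pair in its windows. The ER stress element was in 0 member windows (0.0769% of all) and the amino acid response element TGATGCAA in 0 (0.866% of all). Nothing is read from these values, since both elements are rare in all windows and DNAJC1, an ER member, was not searched. A match describes letters in these windows and says nothing on binding.

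**Figure D1:**
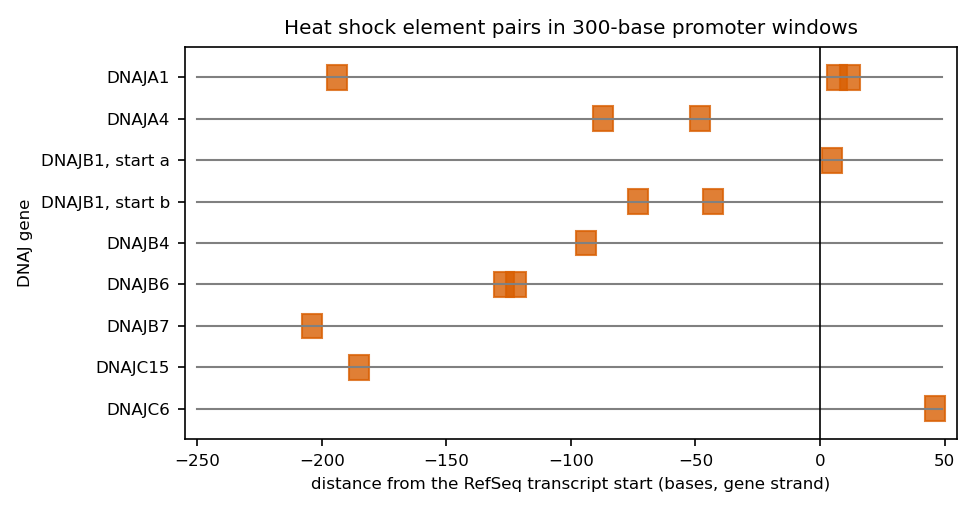
Positions of heat shock element pairs (orange boxes) in the 9 member windows that held at least 1, against distance in bases from the RefSeq transcript start (vertical line). DNAJB1 appears with both of its windows that hold a pair; the boxes of DNAJA1 after the start and of DNAJB6 overlap because each forms a 3-unit element.

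Over the 4 libraries, 37 of the 42 members passed the filter on low counts (4 of subfamily A, 8 of B and 25 of C). The 5 others were DNAJB3, which the annotation lists as a processed pseudogene, and DNAJB8, both without a read, DNAJB7 with 1 read in treated TIB153, DNAJB13 with 3, 3, 0 and 1 reads, and DNAJC22 with 0, 5, 2 and 0 reads. Lists of 4 values are given throughout in the order CUTLL1 control, CUTLL1 with PKF118-310, TIB153 control, TIB153 with PKF118-310. DNAJB7, DNAJB8 and DNAJB13 are best known from the testis. The members that passed were read deeply enough for small ratios, with a median of 358 counts in control CUTLL1 and 378 in control TIB153, against 226 and 239 over all genes that passed. Pseudogenes named after members, 18 in all, held 4, 6, 8 and 8 counts in sum, so few reads were assigned to such copies.

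Levels between genes were compared as CPM per kb of the principal transcript. DNAJA1, a cytosolic partner of HSP70 and HSC70, ranked first in both control libraries at 130 and 248 CPM per kb. The splicing-associated DNAJC8 ranked second at 119 and 111 CPM per kb. DNAJB6 (79.6 and 86.4) and DNAJB1 (74.6 and 87.9) led subfamily B on this scale. The rank of DNAJB6 depended on the length used, since it fell from 3 to 18 in CUTLL1 when all annotated exonic bases were counted, whereas DNAJA1 and DNAJC8 kept the first 2 ranks in both lines. Among members that passed, the lowest control levels were those of DNAJA4 in subfamily A (1.58 CPM per kb in CUTLL1 and 0 in TIB153), DNAJB4 in subfamily B (2.94 and 1.92) and, in subfamily C, DNAJC28 in CUTLL1 (0.423) and DNAJC12 in TIB153 (0.217, from 2 counts).

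**Figure D2:**
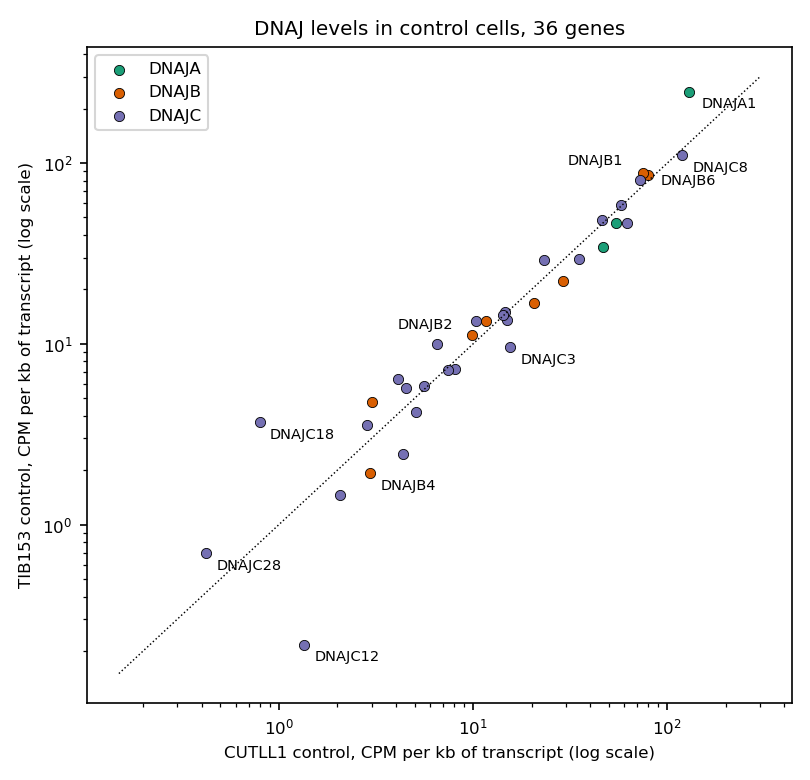
Control level of 36 members in CUTLL1 (x) and TIB153 (y), as CPM per kb of the principal transcript on log axes, with subfamilies coloured and equal levels dotted; DNAJA4, without reads in TIB153, is left out. Most points follow the dotted line, DNAJA1 lies at 130 and 248, and DNAJC18 and DNAJC12 lie farthest from it.

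The control libraries of the lines differed beyond counting error for 23 of these 37 members, with TIB153 higher for 11 and lower for 12. Over all genes such a difference was as common, at 56.2% (28.2% higher and 28.0% lower in TIB153). DNAJA4 had 38 and 36 reads in CUTLL1 and none in TIB153. With 3 counts taken as the limit that 0 reads allow, control CUTLL1 stood at 13.2-fold that limit in control TIB153. For the treated libraries the value was 12.6-fold. Both values leave out the counting error of the CUTLL1 reads. With 0.5 counts added, the control log2 difference, TIB153 minus CUTLL1, was −6.32 (95% counting interval −10.35 to −2.3). DNAJC18, an ER membrane protein, was 4.56-fold higher in control TIB153 (18.8 against 4.06 CPM). DNAJA1 was 1.91-fold higher in control TIB153, at 591 against 310 CPM, a log2 difference of 0.93 (95% counting interval 0.86 to 1.01). DNAJC3, an ER lumen cochaperone, was 1.62-fold lower there, at 53.4 against 86.6 CPM. With 1 control library per line these differences have no replicate check.

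With PKF118-310, DNAJB2, DNAJB4, DNAJC1 and DNAJC27 rose over both lines, and DNAJC8, DNAJC11 and DNAJC13 fell. These were 4 and 3 of the 37 members tested, where 6.11% of the 13280 genes tested rose and 6.78% fell (edgeR quasi-likelihood test with cell line as a block, Benjamini-Hochberg adjusted over all genes). The members' counts were of the order of these shares and are no result about the family. Of the 37, 12 had an unadjusted p under 0.05 (32.4%, against 28.7% of all genes), and the alternative test, DESeq2, called DNAJB2 and DNAJB4 higher and DNAJC11 lower. Scaling to total counts alone left the 4 rises and 2 of the falls and moved the split over all genes from 812 rises and 900 falls to 849 and 560.

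Within a line there was 1 library per group, so ratios are given with 95% exact binomial counting intervals, with no p-value. In CUTLL1, 3 members were higher by 2-fold or more with PKF118-310 (4.8% of all genes were) and 0 were lower by as much (2.21%). In TIB153, 3 were higher by 2-fold or more (5.47%) and 1 was lower by as much (2.12%). At any size beyond counting error, 9 members were higher in CUTLL1 (24.3%, against 23.3% of all genes) and 6 lower (16.2%, against 23.9%). In TIB153, 6 were higher (16.2%, against 25.2%) and 17 lower (45.9%, against 28.7%). The median log2 ratio of the members was −0.02 in CUTLL1 and −0.19 in TIB153, beside 0.00 and −0.01 over all genes.

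**Figure D3:**
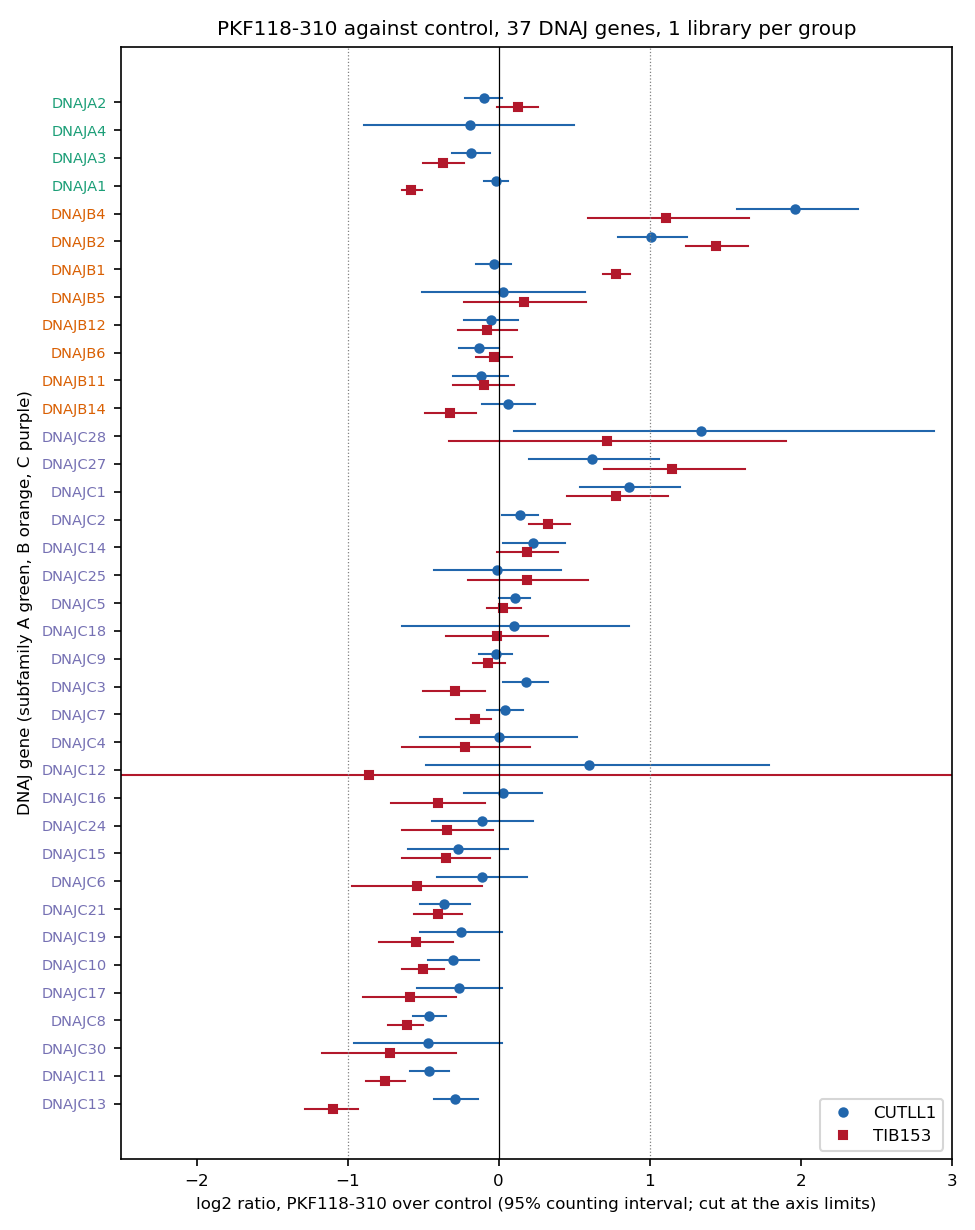
Log2 ratio of PKF118-310 over control for the 37 members that passed the filter, in CUTLL1 (circles) and TIB153 (squares), with lines for 95% counting intervals and dotted lines at 2-fold; names are coloured by subfamily. DNAJB4 and DNAJB2 lie at or beyond 2-fold higher in both lines, and many class C members lie to the left of 0 in TIB153, down to −1.10 for DNAJC13.

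By subfamily, the summed level of the 12 class B genes went from 553.7 to 592.3 CPM in CUTLL1 and from 581.3 to 768.8 CPM in TIB153, log2 ratios of 0.10 and 0.40. The 4 class A genes went from 609.7 to 577.4 CPM in CUTLL1 and from 826.9 to 612.4 CPM in TIB153 (−0.08 and −0.43). The 26 class C genes went from 1647.8 to 1546.0 CPM and from 1621.0 to 1345.1 CPM (−0.09 and −0.27). The sign of each sum was the same with scaling to total counts. In these sums, which weigh the abundant genes most, class B was higher and classes A and C lower with PKF118-310, by more in TIB153 than in CUTLL1. In TIB153 most of the class A fall lay in DNAJA1, from 591 to 396 CPM. Most of the class B gain there lay in DNAJB1, from 199 to 342 CPM. The median ratios, which weigh genes equally, were −0.14 and −0.37 for class A, 0.00 and 0.07 for class B and −0.01 and −0.34 for class C.

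Cytosolic and nuclear class B proteins include the stress-inducible DNAJB1 and its relatives. DNAJB2, which carries ubiquitin-interacting motifs and passes clients to the proteasome, had 31.4, 63.5, 35.6 and 96.6 CPM. Both treated libraries lay above both controls. Here and for the other called genes, such a separation describes the libraries that the test used and is no further support. The fold was 2.02 in CUTLL1 and 2.71 in TIB153, log2 ratios of 1.01 (0.79 to 1.25) and 1.44 (1.24 to 1.65). Over both lines DNAJB2 rose by 1.23 ± 0.16 on the log2 scale (SE, edgeR adjusted p = 0.000768). The gene lies at chr2:219279267-219286900 on hg38 and shares no exonic base with another annotated gene.

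DNAJB4, a close relative of DNAJB1, had 8.79, 34.5, 5.73 and 12.4 CPM. Again both treated libraries lay above both controls, with 276 reads against 65 in CUTLL1 and 104 against 44 in TIB153. The ratio was 3.90-fold in CUTLL1 and 2.15-fold in TIB153, and over both lines DNAJB4 rose by 1.58 ± 0.28 (log2, SE, edgeR adjusted p = 0.00437). The gene lies at chr1:77979175-78017964, with the start next to the promoter stretch above at base 78004939. The response of DNAJB4 was larger in CUTLL1, by 0.86 on the log2 scale (0.22 to 1.49), and that of DNAJB2 larger in TIB153, by 0.43 (0.13 to 0.72). These intervals cover counting error only, and the difference between lines has no replicate.

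DNAJB1, the main stress-inducible HSP40 of the cytosol, had 169, 165, 199 and 342 CPM. Treated TIB153 stood above the 3 other libraries, and the CUTLL1 libraries differed by less than counting error. The log2 ratio was 0.78 (0.69 to 0.87) in TIB153 and −0.03 (−0.15 to 0.08) in CUTLL1, a difference of 0.82 (0.68 to 0.96). Over both lines DNAJB1 did not pass the test (0.38 ± 0.18, edgeR adjusted p = 0.206). DNAJB6, which restrains aggregation of polyglutamine proteins, had 128, 117, 139 and 136 CPM, and its 3-unit element was shown above. DNAJB5 had 7.85, 8.0, 12.4 and 14.0 CPM. The ratios of both stayed within counting error in either line. Among the 5 genes of this group that passed, 2 were called higher and 0 lower over both lines (6.11% and 6.78% of all genes), and the medians were 0.03 in CUTLL1 and 0.78 in TIB153.

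The cytosolic class A proteins DNAJA1, DNAJA2 and DNAJA4 work with HSC70 and HSP70 in general folding and in steroid receptor maturation. DNAJA1 had 310, 305, 591 and 396 CPM. The high TIB153 control was its outstanding value, and treated TIB153 still lay above both CUTLL1 libraries. Its log2 ratio was −0.58 (−0.64 to −0.51) in TIB153 and −0.02 (−0.10 to 0.06) in CUTLL1, a difference of −0.56 (−0.66 to −0.45), and it did not pass the test over both lines (edgeR adjusted p = 0.198). In TIB153, then, DNAJA1 and DNAJB1 stood on opposite sides of their controls. DNAJA2 had 145, 136, 107 and 117 CPM, with ratios of −0.10 and 0.13 that both lay within counting error. DNAJA4 had 5.14 and 4.50 CPM in CUTLL1, a ratio of −0.19 (−0.89 to 0.50). Of the 4 class A genes, DNAJA3 included, edgeR called 0 (6.11% of all genes rose and 6.78% fell) and DESeq2 called 0. By edgeR 1 (DNAJA3) had an unadjusted p under 0.05, against 28.7% of all genes.

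**Figure D4:**
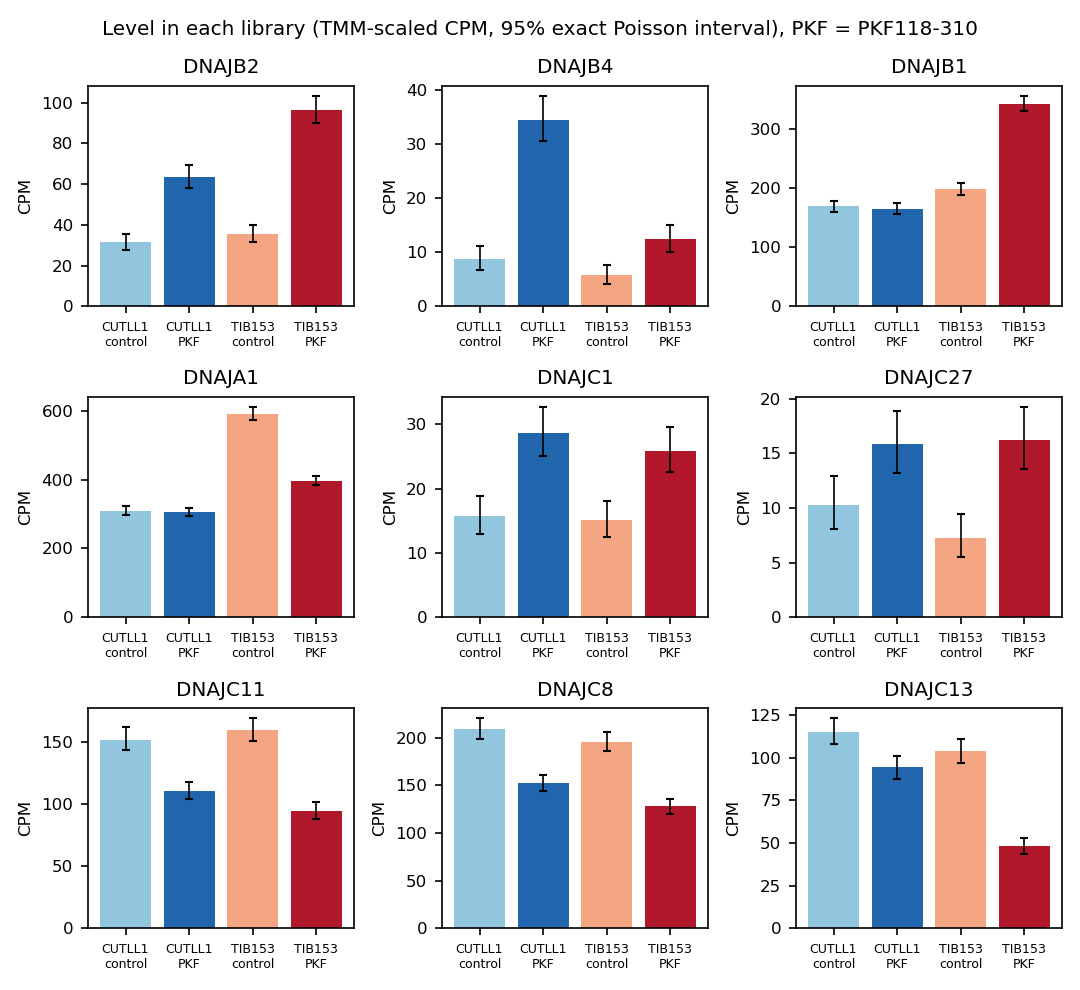
Level of 9 members in each library, as TMM-scaled CPM with 95% exact Poisson intervals, 1 library per bar, on axes that start at 0. DNAJB2, DNAJB4, DNAJC1 and DNAJC27 were higher and DNAJC8, DNAJC11 and DNAJC13 lower with PKF118-310 in both lines, whereas DNAJB1 (165 against 169 CPM in CUTLL1, 342 against 199 in TIB153) and DNAJA1 (305 against 310, 396 against 591) differed beyond counting error in TIB153 and not in CUTLL1.

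Some of the ER members serve the lumenal HSP70 protein BiP, encoded by HSPA5. DNAJC1, an ER membrane protein whose J domain faces the lumen, had 15.7, 28.6, 15.1 and 25.9 CPM. The 2 controls lay close together, as did the treated libraries, and the groups did not overlap. The log2 ratios were 0.86 (0.54 to 1.20) and 0.78 (0.45 to 1.12), and DNAJC1 rose by 0.82 ± 0.21 (SE, edgeR adjusted p = 0.0217). By DESeq2 its adjusted p was 0.178. The gene lies at chr10:21756537-22003769, and 1 member of the 10 in the ER group was called (6.11% of all genes rose and 6.78% fell).

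The other ER members were not called. DNAJC10, a reductase that works with BiP in degradation of misfolded proteins, had 82.4, 67.0, 128 and 90.0 CPM. It was lower beyond counting error in both lines (−0.30 and −0.50, edgeR adjusted p = 0.061). DNAJC3 had 86.6, 98.1, 53.4 and 43.6 CPM and went opposite ways, at 0.18 (0.03 to 0.33) in CUTLL1 and −0.29 (−0.50 to −0.09) in TIB153. DNAJB11, a soluble BiP cochaperone, had 69.4, 63.7, 53.4 and 49.7 CPM, and the membrane protein DNAJB12 had 67.9, 65.7, 55.5 and 52.7 CPM. Both stayed within counting error in each line. DNAJB14, a relative of DNAJB12, was at −0.32 (−0.49 to −0.15) in TIB153 and 0.06 in CUTLL1. Of the remaining ER members, DNAJC14, DNAJC16, DNAJC18 and DNAJC25 had ratios between −0.40 and 0.23, and the group's medians were 0.05 and −0.09.

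The mitochondrial members were lower in each line, all 5 beyond counting error in TIB153 (28.7% of all genes were) and 2 of 5 in CUTLL1 (23.9%). Over both lines 1 of the 5 passed the test (6.11% of all genes rose and 6.78% fell). DNAJC11, which is part of the complexes that shape the cristae, had 152, 111, 160 and 94.8 CPM. Both controls lay above both treated libraries, with log2 ratios of −0.46 (−0.59 to −0.33) and −0.75 (−0.88 to −0.62). DNAJC11 fell by 0.61 over both lines (SE 0.13, edgeR adjusted p = 0.0101). Of its exonic bases at chr1:6634168-6701924, 27.9% are shared with THAP3 on the opposite strand. THAP3 itself had 177, 221, 145 and 249 counts, ratios of 0.20 and 0.65. Whether reads were counted by strand is not known here, and the part of THAP3 in the reads of DNAJC11 was not tested.

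DNAJA3, the mitochondrial class A protein, had 150, 132, 129 and 99.7 CPM, with ratios of −0.18 (−0.31 to −0.06) and −0.37 (−0.50 to −0.23). The import motor subunits DNAJC19 (33.6, 28.2, 42.1 and 28.8 CPM) and DNAJC15 (22.3, 18.5, 27.9 and 21.9 CPM) were lower in TIB153 beyond counting error, by log2 ratios of −0.55 and −0.35. DNAJC30 was at −0.47 and −0.72. The group's medians were −0.27 in CUTLL1 and −0.55 in TIB153. Apart from DNAJC11 these genes did not pass the test over both lines, the adjusted p of DNAJA3 being 0.161 by edgeR.

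Members tied to ribosomes, splicing or chromatin included the second gene to fall. DNAJC8, a spliceosome-associated protein, had 209, 152, 195 and 128 CPM. Controls and treated libraries did not overlap. The log2 ratios were −0.46 (−0.57 to −0.35) and −0.61 (−0.73 to −0.50), and DNAJC8 fell by 0.53 (SE 0.12, edgeR adjusted p = 0.0136). Its exonic bases at chr1:28199456-28233025 are not shared with another gene. The pre-ribosome factor DNAJC21 was at −0.36 and −0.40, beyond counting error in both lines (edgeR adjusted p = 0.079), and DNAJC17, found with the spliceosome, at −0.26 and −0.59.

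DNAJC2, the J protein of the ribosome-associated complex, had 134, 148, 101 and 127 CPM and went the other way. It was higher beyond counting error in both lines, at 0.14 (0.02 to 0.26) and 0.33 (0.20 to 0.47), and did not pass the test (edgeR adjusted p = 0.23). The histone chaperone DNAJC9 had 175, 172, 177 and 169 CPM, within counting error in each line. DNAJC9, DNAJC11, DNAJC14 and DNAJC17 were the 4 members that shared over 25% of their exonic bases with genes of the opposite strand. The medians of these 5 genes were −0.26 and −0.40.

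Of the vesicle and endosome members, DNAJC13, which acts with HSC70 on the endosome in receptor sorting, had 115, 94.5, 104 and 48.2 CPM. Treated TIB153 stood lowest, and both treated libraries lay below both controls. The log2 ratios were −0.29 (−0.43 to −0.14) in CUTLL1 and −1.10 (−1.28 to −0.93) in TIB153, which differed by −0.82 (−1.04 to −0.59). DNAJC13, at chr3:132417526-132539032, fell by 0.69 over both lines (SE 0.19, edgeR adjusted p = 0.0418), and the adjusted p was 0.0631 with scaling to total counts only. The cysteine string protein gene DNAJC5 had 183, 198, 153 and 156 CPM, with ratios of 0.11 and 0.03. DNAJC6, the clathrin-uncoating auxilin, was at −0.11 and −0.54, the latter beyond counting error.

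Among the members without an assigned compartment, DNAJC27, a small GTPase with a J domain, had 10.3, 15.9, 7.29 and 16.2 CPM. The treated libraries lay close together and above both controls. The log2 ratios were 0.62 (0.20 to 1.06) and 1.15 (0.70 to 1.63), and DNAJC27 rose by 0.88 ± 0.27 (SE, edgeR adjusted p = 0.0434). The call was near the threshold, with an adjusted p of 0.303 by DESeq2 and of 0.052 with RLE size factors. The gene lies at chr2:24943636-24972094. DNAJC28 was at least 2-fold higher in CUTLL1 from few reads (7, 20, 12 and 22 counts), with a log2 ratio of 1.34 (0.10 to 2.88), and did not pass over both lines (edgeR adjusted p = 0.193).

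DNAJC7, a tetratricopeptide cochaperone of HSP70 and HSP90, had 146, 150, 164 and 147 CPM and ratios of 0.04 and −0.16. DNAJC4, DNAJC12 and DNAJC24 completed this group. DNAJC24, an enzyme cofactor in diphthamide synthesis, was lower beyond counting error in TIB153 (−0.34), and DNAJC4 lay at 0.00 and −0.22. DNAJC12 had 12 and 20 reads in CUTLL1 and 2 and 1 in TIB153, too few for a ratio there.

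The lines were then set side by side. Of the members, 5 were higher beyond counting error in both lines (DNAJB2, DNAJB4, DNAJC1, DNAJC2 and DNAJC27), 6 lower in both (DNAJA3, DNAJC8, DNAJC10, DNAJC11, DNAJC13 and DNAJC21) and 1 opposite (DNAJC3). The shares of the 37 members, 13.5%, 16.2% and 2.7%, were close to the 13.1%, 15.7% and 3.4% of all genes. The 36 members with reads in both lines had the same sign in 27, and 70.8% of all genes had. Across these 36 genes Pearson's r between the lines was 0.738 and Spearman's rho 0.703 (0.478 and 0.509 over all genes). The genes are not independent replicates, each line's values come from the same pair of libraries, and the members had more reads than the median gene. The ratio in TIB153 was the lower one for 27 of 36 members and for 52.8% of all genes with reads in both lines. The counting interval of that difference excluded 0 for 13 members. It was negative for 9 of 36 (and for 19.3% of all genes), DNAJC13 (−0.82) and DNAJA1 (−0.56) among them, and positive for 4 (and for 14.2% of all genes), namely DNAJA2, DNAJB1, DNAJB2 and DNAJC2.

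**Figure D5:**
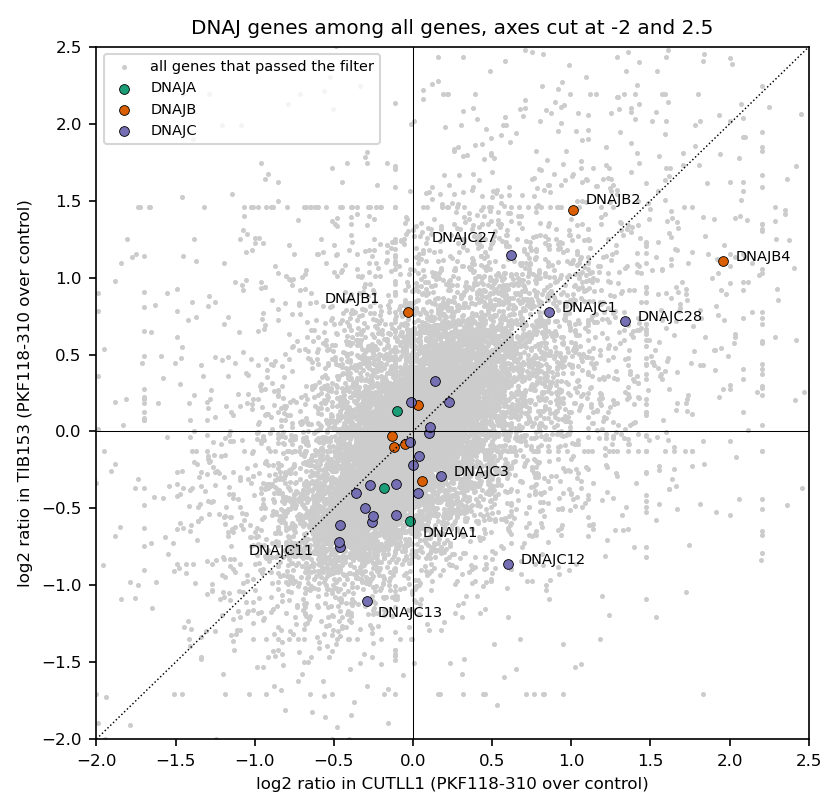
Log2 ratio with PKF118-310 for 36 members in CUTLL1 (x) and TIB153 (y), coloured by subfamily, over all genes that passed the filter (grey), with equal ratios dotted. Many members lie below the dotted line; DNAJB1 lies at −0.03 and 0.78, far above it, and DNAJB2, DNAJB4, DNAJC1 and DNAJC27 lie in the upper right.

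The partners of the J-domain proteins were counted from a fixed list. Of 16 genes of the HSP70 family and its HSP110 relatives, 12 passed the filter, 2 rose and 2 fell over both lines (6.11% and 6.78% of all genes), with 6 at an unadjusted p under 0.05 (28.7% of all genes). Nothing is read from such counts for so few genes. HSPA1B, an inducible HSP70, had 3.65, 16.6, 3.39 and 27.7 CPM and rose by 2.62 ± 0.30 (log2, SE, edgeR adjusted p = 0.000318). Of its exonic bases, 36.5% are shared on the same strand with other annotation, whose part in these reads was not tested. HSPA1A, which did not pass the filter, had 0, 5, 1 and 11 reads. HSPA6, also inducible, had 0, 19, 4 and 122 reads and rose as well (edgeR adjusted p = 0.000382). HSPA4 (336, 240, 467 and 262 CPM) and HSPA4L, which act as exchange factors of the HSP110 type, fell by 0.66 and 0.58 (edgeR adjusted p = 0.00764 and 0.0478). DESeq2 gave an adjusted p of 0.26 for HSPA4L and did not call it. The constitutive HSPA8 was at −0.41 and −0.33, and BiP (HSPA5), the partner of some ER members, at −0.19 and −0.79. Neither passed the test, with edgeR adjusted p of 0.083 and 0.0561.

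Of 10 nucleotide exchange factors tested, 0 rose and 1 fell by edgeR (6.11% and 6.78% of all genes). The 1 was GRPEL1 of mitochondria, which fell by 0.47 (SE 0.14, edgeR adjusted p = 0.0375). GRPEL1 was also the only one with an unadjusted p under 0.05 (28.7% of all genes), and DESeq2 called 0. BAG3 was at 0.20 and 0.25. HSCB, SEC63 and GAK, which encode a J domain under another symbol, did not pass the test, GAK being at −0.03 and −0.08 and SEC63 at 0.06 and −0.07. Of the heat shock factors HSF1, HSF2 and HSF4, edgeR and DESeq2 called 0, and 0 had an unadjusted p under 0.05 (28.7% of all genes). Nothing is read from these counts, since the genes are so few. HSF1 was at −0.31 (−0.43 to −0.20) in CUTLL1 and 0.15 (0.04 to 0.26) in TIB153.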

How the data were processed

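The authors deposited 8 files of raw read counts per gene, 1 for each of 2 lanes of 4 libraries. HISAT2, HTSeq, DESeq2 and build hg38 stand in the submitters' processing notes, and the labels name a stranded mRNA kit. The deposited tables of the authors' own treated-against-control comparisons, which hold counts, fold changes and p-values, were not used.

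Lanes agreed within sampling noise (chi-square per degree of freedom 0.99 to 1.017 over genes with at least 10 reads) and were summed. Positions came from GENCODE v29, which 99.3% of gene rows matched. The filterByExpr filter on low counts left 13280 genes. Within a line, ratios used TMM-scaled CPM with 0.5 counts added, and intervals cover counting error only. Across lines, edgeR 4.0.16 in R 4.3.3 (quasi-likelihood, robust, adjusted p threshold 0.05) was fitted to all genes with cell line as a block. With 1 residual degree of freedom against a median of 13 prior ones, its p-values rest mainly on a spread shared among genes. The strand setting of the counting was not given in the sources used here. DESeq2 1.42.0, RLE factors, total counts, no filter, no block, single lanes, a spread that was not robust and 2 counts added were the alternatives. Libraries were grouped by their labels, and nothing states that they came from separate cultures.

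Named genes were 23 fixed by name, members called or at least 2-fold changed, the extremes of level by subfamily and members under the filter; the rest were named to account for every member. Members, roles and lists were chosen with earlier results of these data known. A DNAJB gene of this symbol form is not reported here.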

Additional observations from a re-analysis of the deposited data

Results flagged for a closer look

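DNAJC3 was higher beyond counting error with PKF118-310 in CUTLL1 (640 and 785 counts, log2 ratio 0.18) and lower in TIB153 (410 and 365 counts, −0.29). It was the only member of the 36 with reads in both lines for which the lines went opposite ways beyond counting error. That is 2.7% of the 37 members that passed the filter, against 3.4% of all genes, so 1 such member is no result about the family. The ratio in TIB153 minus that in CUTLL1 was −0.47 (95% counting interval −0.73 to −0.22). With 1 library per line and treatment this difference was not tested.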

How the results depend on the processing

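The members called over both lines numbered 4 higher and 3 lower. DESeq2 called 2 higher and 1 lower, and the fit without any filter 5 lower. The fit without the cell line block called 0 higher and 0 lower, with 5 members at an unadjusted p under 0.05 and 0 of all 13280 genes called. In CUTLL1, members higher beyond counting error went from 9 to 4 with lane 1 only and to 4 with lane 2 only, where each gene has fewer reads, and members lower beyond counting error from 6 to 10 without the filter. The median log2 ratio in CUTLL1, −0.02, was 0.03 with total counts only and 0.01 with lane 1 only, so its sign was not stable. The cause of the other changes was not tested. The other 54 summary values kept their direction and stayed within 1.5 times the reported count or within the spread allowed. Of the values for single members, 128 kept direction and call, 13 lost the call and 4 uncalled values near 0 changed sign: DNAJC3 (−0.05) was 0.01 with total counts only and 0.02 without the block, DNAJC9 (−0.04) was 0.01 with total counts only, and DNAJA2 (0.01) was 0.00 without the block. Total counts only moved the median of all genes by 0.05 in CUTLL1 and 0.06 in TIB153 (log2). A line could not be left out of the test, since no residual degree of freedom remained. Depth limits DNAJA4, DNAJC12 and DNAJC28, which had at most 38 counts in any library.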
